A study of Mus musculus with 16 samples.

Results

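The Hoxd cluster holds 9 homeobox genes, Hoxd13, Hoxd12, Hoxd11, Hoxd10, Hoxd9, Hoxd8, Hoxd4, Hoxd3 and Hoxd1, which are 9 of 21853 protein-coding genes in the GENCODE M21 annotation (mouse build mm10). They were taken by name, and each was described over its gene body joined with 1 kb on either side of each of its start sites. The histone marks of these genes were measured by chromatin immunoprecipitation and sequencing (ChIP-seq) of hematopoietic stem cells (HSCs), which sit in the bone marrow and renew every blood lineage. HSCs came from young (10-week) and aged (20-month) C57BL/6 mice. They were sorted by surface markers (CD150+ CD48- CD34- Flt3- cells of the c-kit+ Sca-1+ fraction that lacked lineage markers and the IL-7 receptor). The labels give no genetic change or treatment for either group, and the study describes pooling bone marrow of several mice before sorting. For H3K4me3, H3K27me3 and H2AK119ub1, the labels list 2 libraries per mark and age, with 2 input libraries per age, and the peaks used here came as 1 pooled list per mark and age. There was thus no replicate spread and no test, and each difference between young and aged HSCs given here is a difference between a pair of lists.

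Hox genes encode transcription factors that give cells their position along the body axis, and the order of the genes on the chromosome follows the order in which they are switched on, from Hoxd1 (first, and closest to the head) to Hoxd13 (last, in digits, tail and genitalia). In cells that do not use them, Hox genes are classical targets of the Polycomb repressive complexes. Polycomb repressive complex 2 deposits H3K27me3, Polycomb repressive complex 1 deposits H2AK119ub1, and each can be recruited by the mark of the other. H3K4me3, by contrast, marks the start sites of active or poised genes. Among the Hox genes, those of the Hoxa and Hoxb clusters are the ones best known for expression in HSCs.

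The 6 lists held 11371 (young) and 6723 (aged) H3K4me3 peaks, 63142 and 20419 H3K27me3 regions, and 2593 and 17768 H2AK119ub1 regions. As a check of the cell type, H3K4me3 lay at start sites of 10 of 12 HSC marker genes at both ages. It lay at 0 of 3 marker genes each of B cells, T cells and myeloid cells, also at both ages. The lowest number of background reads under an H3K4me3 peak was 3.70 for the young and 3.52 for the aged list, which gives the depth of these lists as reads covering a base. The depth behind the broad lists was not computed.

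All 9 genes are transcribed in the same direction, from the plus strand of chromosome 2. The span from 1 kb before the start of Hoxd13 to 1 kb after the end of Hoxd1 (chr2:74667310-74766142) is 98.83 kb long. It holds 16 protein-coding start sites of the 9 genes, and only these are counted below. A further protein-coding model, Gm28230, lies within the span. Hoxd13 lies at one end (chr2:74668310-74671599) and Hoxd1 at the other (chr2:74762980-74765142). The gene model of Hoxd4 (chr2:74711929-74729160) lies wholly within that of Hoxd3 (chr2:74711927-74748442), so values of this pair are not independent.

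H3K27me3 was found at every member at both ages. In young HSCs, 9 of 9 genes carried an H3K27me3 region by the gene body rule, against 22.2% of all protein-coding genes, and 9 of 9 carried one within 1 kb of the start of a protein-coding transcript (start site rule), against 16.5%. The aged counts were again 9 of 9 by both rules, against 13.3% and 8.58% of all genes. The mark differed between the ages in its extent. Young H3K27me3 covered 90.4 kb (91.4%) of the span in 18 regions, whereas aged H3K27me3 covered 51.9 kb (52.5%) in 56 regions. The covered length in aged HSCs was 0.574 of that in young HSCs, while over the whole lists this ratio was 0.244. The Hoxd cluster thus kept a larger share of its covered length than the genome as a whole.

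**Figure D1:**
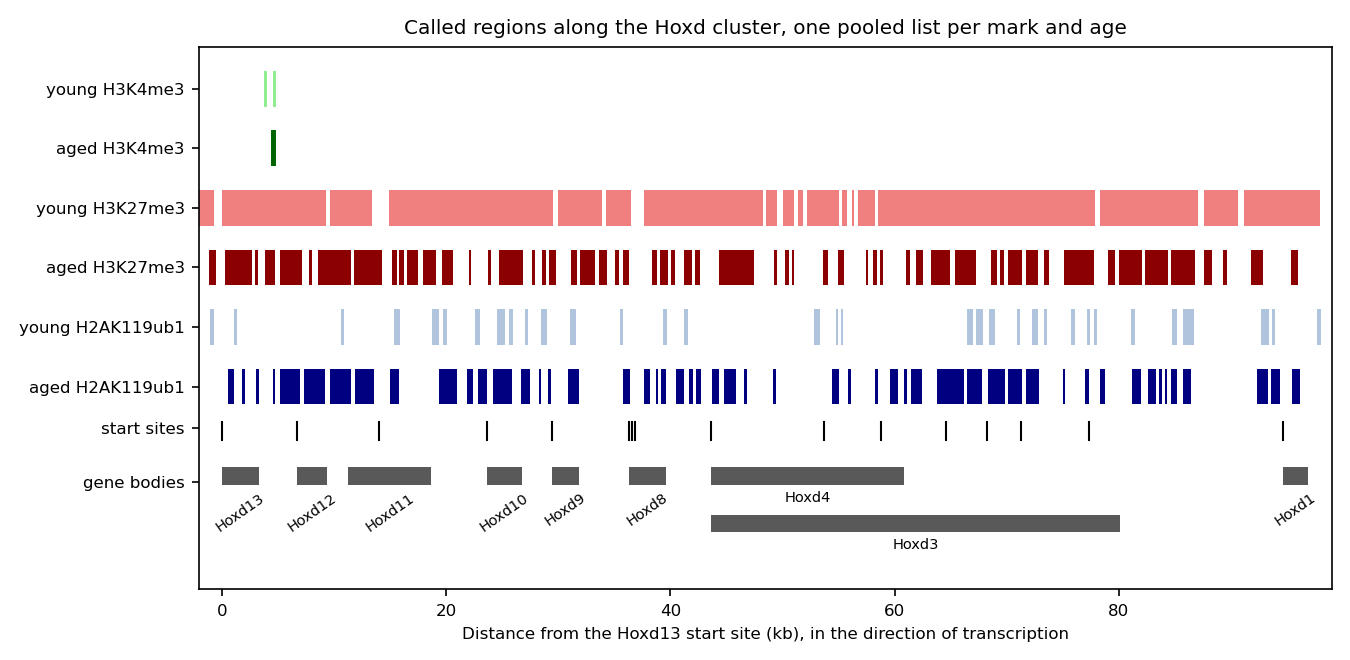
Called regions of the 6 pooled lists (coloured bars, 1 row per mark and age) over the 16 protein-coding start sites of the 9 genes (ticks) and their gene bodies (grey bars), against distance from the Hoxd13 start site in kb. Young H3K27me3 is nearly continuous (91.4% of the span), aged H3K27me3 is split into 56 regions (52.5%), H2AK119ub1 is sparse in young (13.6%) and denser in aged HSCs (39.5%), and the H3K4me3 peaks lie between Hoxd13 and Hoxd12.

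The young H3K27me3 regions were long. Their median width was 2970 bp and 11 of 18 were wider than 2 kb. The widest covered 19363 bp of the Hoxd3 model, the end of Hoxd4 included (chr2:74726817-74746179), at a mean fold enrichment of 4.23. In aged HSCs the median width was 600.5 bp and 9 of 56 regions were wider than 2 kb. The widest aged region covered 3052 bp near the start of the Hoxd3 and Hoxd4 models (chr2:74712677-74715728, 3.28-fold). Enrichment within the regions differed less than width, with a median of 3.63-fold in young and 3.26-fold in aged HSCs. The region with the highest −log10 q-value lay at Hoxd11 in young HSCs (4.20-fold, −log10 q of 5.11) and over the Hoxd12 promoter in aged HSCs (4.08-fold, −log10 q of 3.50).

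Aged H3K27me3 lay mostly where young H3K27me3 had been called, which was most of the span. Of the bases covered in aged HSCs, 95.4% were also covered in young HSCs, and these made up 54.8% of the young bases. Both values were close to the shares of the span under each list, 91.4% for young and 52.5% for aged H3K27me3. When regions up to 2 kb apart were joined, young H3K27me3 formed 1 block of 130.2 kb, from 25.4 kb before the start of Hoxd13 to 7.95 kb beyond the end of Hoxd1. Aged H3K27me3 formed 5 blocks by the same rule. The longest, 58.77 kb (chr2:74645852-74704617), began 22.5 kb before Hoxd13 and ran over Hoxd12, Hoxd11, Hoxd10 and Hoxd9 to the first start site of Hoxd8. Blocks of 12.73 kb and 36.01 kb followed over the rest of Hoxd8 and the Hoxd4 and Hoxd3 models, and the last, of 659 bp, lay in Hoxd1.

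Gene by gene, the difference in covered length was unequal along the cluster. Hoxd13, which patterns digits and genitalia, was covered to 84.8% in young and 72.6% in aged HSCs. At Hoxd12, its neighbour with a role in the distal limb, the values were 98.3% and 67.0%. Hoxd11, required with Hoxa11 for the forearm, had 82.3% in young and 74.3% in aged HSCs, the highest aged value of the cluster. These 3 genes at the late-acting end kept 85.5%, 68.2% and 90.3% of their young covered length.

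The middle of the cluster kept less. Hoxd10, which acts in motor neurons of the hind limb, went from 100% covered in young to 56.2% in aged HSCs. The covered share of Hoxd9 was 87.1% in young and 44.8% in aged HSCs, and that of Hoxd8 was 73.7% and 38.2%. Hoxd9 and Hoxd8, like Hoxd10, thus kept between 51.5% and 56.2% of their young covered length.

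At the early-acting end, Hoxd4 and Hoxd1 had the lowest aged values, whereas Hoxd3 lay among the middle genes. Hoxd4, a gene of the hindbrain and neck, was covered to 85.4% in young and 31.5% in aged HSCs. Hoxd3, which shapes the uppermost neck vertebrae, had 91.8% and 46.5%. Hoxd1, known for its role in pain-sensing neurons, had the largest difference of all members, from 100% in young to 20.8% in aged HSCs, where a single region of 659 bp remained (3.09-fold, −log10 q of 1.86). When only regions with a −log10 q of at least 2 were taken, aged covered length was 0 bp at Hoxd1, 551 bp at Hoxd4, 645 bp at Hoxd8 and 10438 bp at Hoxd3. It stayed below the young length at all 9 genes in that setting and with the same number of regions from both lists.

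Over the 9 genes, the share of young covered length found in aged HSCs followed the gene order, highest towards Hoxd13 (Spearman's rho 0.92, n = 9, a description over genes that share the same pair of lists). Without Hoxd4, which overlaps Hoxd3, rho was 0.90 over 8 genes. With the same number of regions at both ages rho was 0.77.

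**Figure D2:**
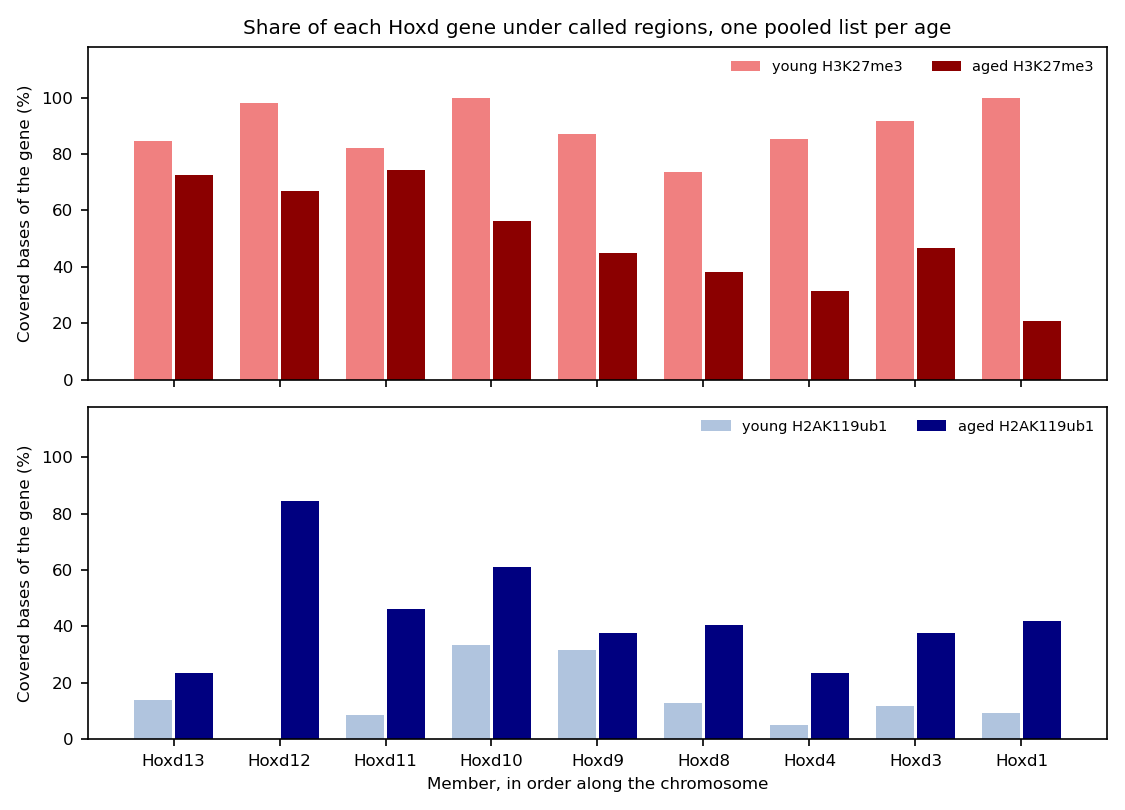
Percent of bases covered by H3K27me3 (upper) and H2AK119ub1 (lower) regions in young (light) and aged (dark) HSCs for each of the 9 genes, ordered along the chromosome, with 1 pooled list per bar and hence no error bars. H3K27me3 cover in aged HSCs is between 67.0% and 74.3% at Hoxd13, Hoxd12 and Hoxd11 and 20.8% at Hoxd1, and H2AK119ub1 cover is higher in aged HSCs at all 9 genes, or at 5 of 9 when the same number of regions is taken from both lists.

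Windows of 10 kb laid from the Hoxd13 side showed that the order of the genes was not a smooth slope of the chromosome. Aged covered length was 70.3% and 95.6% of the young one in the first pair of windows (Hoxd13 to Hoxd11), and between 35.2% and 57.5% in the next 4 windows, from Hoxd10 into the Hoxd4 model. It was then 50.1%, 62.1% and 79.8% in the following 3 windows, over the body of Hoxd3 and the stretch beyond it. The last window, with Hoxd1, had the lowest value, 24.1%. The ninth window, most of which lies between Hoxd3 and Hoxd1 and holds no other member, therefore kept more of the mark than either gene.

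Start sites did not follow the cover of the cluster in young HSCs. Young H3K27me3 covered 12 of 16 start sites (75.0%), although it covered 91.4% of the span, and only 5.12% of 54327 start sites of all genes. Of the 17 gaps between young regions, 3 held start sites of members, and those were the 3 widest. A gap of 1500 bp lay over the protein-coding start site of Hoxd11 (chr2:74681689-74683188), one of 1138 bp over 2 start sites of Hoxd8 (chr2:74704835-74705972) and one of 650 bp over the start site of Hoxd13 (chr2:74667663-74668312). The Hoxd13 start site lay at the very edge of its gap, 3 bp from the next region, so its count as uncovered rests on those bases. The 14 other gaps were at most 506 bp wide. Counted over all start sites, young cover was 100% of bases between 1400 and 800 bp before a start site and 66.0% between 400 and 600 bp after it.

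In aged HSCs, 9 of 16 start sites (56.2%) were covered, close to the 52.5% of the span. Of the 56 aged gaps, 6 held start sites of members, and unlike in young HSCs the widest gap (2540 bp) held none. The gaps at Hoxd13 (870 bp) and Hoxd8 (2018 bp) were present again and wider. Further gaps lay over start sites that young H3K27me3 had covered, namely those of Hoxd10 (1508 bp), Hoxd3 (1738 and 1361 bp) and Hoxd1 (2525 bp). Hoxd11 went the other way, since a region in aged HSCs ran over its start site and the 1 kb on either side was covered to 63.3%, compared with 25.0% in young HSCs. It was the only 1 of the 9 genes whose start-site windows were covered more by H3K27me3 in aged than in young HSCs. Among 416 genes outside the Hox clusters with at least 50% young H3K27me3 cover, 71.0% of start sites were covered in young and 22.5% in aged HSCs, a setting chosen after values were seen. The genes themselves also differed in aged cover, with a median of 26.1% for these 416 genes and 46.5% for the Hoxd genes. The start-site values are therefore not a comparison at equal cover.

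**Figure D3:**
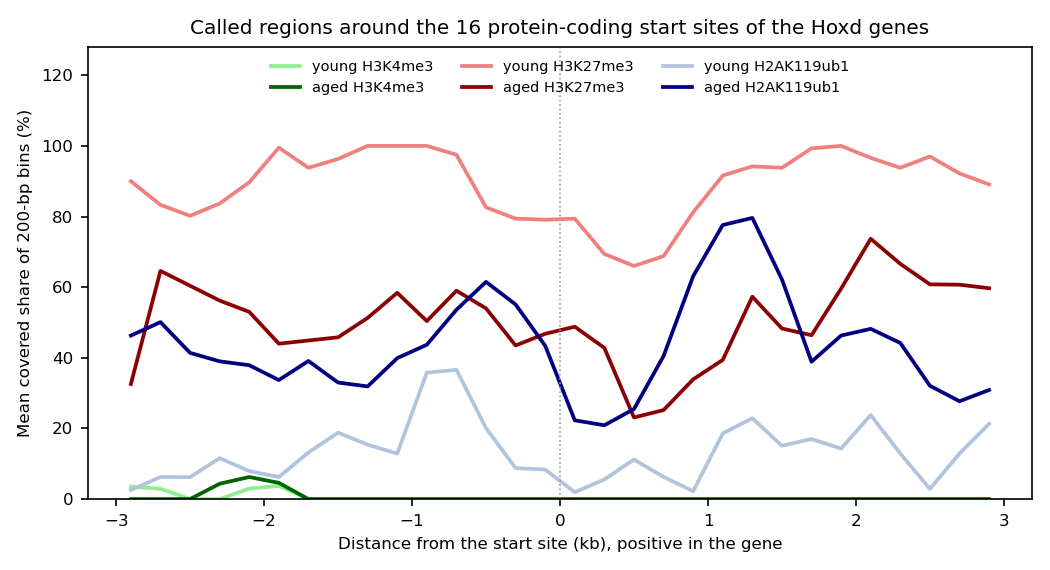
Mean share of each 200-bp bin covered by called regions, as a percent, against distance in kb from the 16 protein-coding start sites of the 9 genes, with 1 line per mark and age. Young H3K27me3 dips to 66.0% just inside the genes, aged H2AK119ub1 dips to 20.9% between 200 and 400 bp after the start site and reaches 61.5% before and 79.6% after it, and H3K4me3 is at 0 from 1000 bp before to 3000 bp after the start sites.

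The sequences just before the start sites show what the uncovered and covered promoters are made of. Each is the 250 bases upstream of a RefSeq start (build GRCm38.p6, the same assembly as mm10), on the plus strand, with every CG dinucleotide in capitals, which reads the same on both strands. All 9 members had an entry in the RefSeq table, Hoxd11 with 2, so 10 promoters were read. Young H3K27me3 covered none of the bases of the first pair shown here, at Hoxd13 (chr2:74667975-74668224) and at the protein-coding start of Hoxd11 (chr2:74682073-74682322), and in aged HSCs the Hoxd13 promoter stayed at 0 whereas that of Hoxd11 was covered to 100%.
Hoxd13: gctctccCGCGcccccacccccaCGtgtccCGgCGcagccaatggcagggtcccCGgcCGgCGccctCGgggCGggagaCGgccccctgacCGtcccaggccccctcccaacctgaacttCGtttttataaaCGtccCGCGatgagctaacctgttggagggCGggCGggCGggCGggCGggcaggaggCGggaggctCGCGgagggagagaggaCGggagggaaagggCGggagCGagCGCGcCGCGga
Hoxd11: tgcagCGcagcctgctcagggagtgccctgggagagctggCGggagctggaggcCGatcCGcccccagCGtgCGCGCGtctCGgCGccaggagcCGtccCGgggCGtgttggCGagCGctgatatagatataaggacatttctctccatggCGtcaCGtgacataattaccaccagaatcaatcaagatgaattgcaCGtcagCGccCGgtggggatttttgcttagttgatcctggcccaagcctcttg
The promoter of Hoxd12 (chr2:74674763-74675012) was wholly covered at both ages, and is shown for contrast.
Hoxd12: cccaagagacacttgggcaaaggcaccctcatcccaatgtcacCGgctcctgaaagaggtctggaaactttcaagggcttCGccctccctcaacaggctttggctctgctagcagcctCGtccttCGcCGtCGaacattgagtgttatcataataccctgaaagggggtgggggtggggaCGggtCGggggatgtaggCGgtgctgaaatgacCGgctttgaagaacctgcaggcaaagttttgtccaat
The promoters of Hoxd10 (chr2:74691641-74691890), Hoxd1 (chr2:74762730-74762979) and Hoxd3 (chr2:74711743-74711992, not shown) were wholly covered in young HSCs and not at all in aged HSCs.
Hoxd10: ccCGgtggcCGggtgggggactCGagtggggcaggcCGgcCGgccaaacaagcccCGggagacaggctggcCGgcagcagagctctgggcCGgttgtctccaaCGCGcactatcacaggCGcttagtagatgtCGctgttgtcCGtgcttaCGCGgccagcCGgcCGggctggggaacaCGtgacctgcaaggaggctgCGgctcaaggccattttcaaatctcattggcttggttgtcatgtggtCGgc
Hoxd1: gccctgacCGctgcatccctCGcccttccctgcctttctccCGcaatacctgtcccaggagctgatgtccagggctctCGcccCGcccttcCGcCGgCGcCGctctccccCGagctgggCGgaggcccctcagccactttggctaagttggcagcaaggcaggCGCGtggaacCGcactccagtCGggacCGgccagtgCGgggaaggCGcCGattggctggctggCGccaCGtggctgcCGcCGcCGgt

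The promoters uncovered in young HSCs were rich in CG, and so were some that were covered. The Hoxd13 promoter held 31 CG dinucleotides, more than 94.8% of 32841 RefSeq promoters of the same length, whose median was 6.00 and of which 92.1% held at least 1. The Hoxd11 promoter held 20. Those of Hoxd10 and Hoxd1, wholly covered in young HSCs, held 20 and 24, as many as Hoxd11 or more. The Hoxd3 promoter, covered in young and not in aged HSCs like these, held 12. Hoxd12, covered at both ages, held 10. The lowest numbers were 2, at the upstream start of Hoxd11, 3 at Hoxd4 and 6 at Hoxd8. Over the whole span, the 3 young gaps with start sites of members had 72.7% G and C and 123 CG per kb, while the 14 gaps without one had 47.1% and 23.6 per kb. Covered bases were close to the latter, with 48.7% G and C and 25.2 CG per kb. In aged HSCs, gaps with start sites of members had 65.6 CG per kb, gaps without one 24.1 and covered bases 24.2. Whether base composition had a part in the calls was not tested.

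H3K4me3 was not listed at any member. In young HSCs, 0 of 9 genes carried a peak by the gene body rule, against 36.6% of all protein-coding genes, and 0 of 9 by the start site rule, against 34.3%. In aged HSCs the count was also 0 of 9 by both rules, against 25.6% and 23.7%. At this depth, an H3K4me3 level below the threshold of the caller at these genes was not detectable.

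The H3K4me3 peaks of the span lay between Hoxd13 and Hoxd12, in no gene model. Young HSCs had 2 peaks, of 207 bp (chr2:74672099-74672305, 2.47-fold, −log10 q of 1.73) and 214 bp (chr2:74672918-74673131, 3.73-fold, −log10 q of 3.92). Aged HSCs had 1 peak of 486 bp (chr2:74672674-74673159, 4.50-fold, −log10 q of 5.55), which contained the second young peak whole. The shared 214 bp ended 1882 bp before the start of Hoxd12. They are shown here on the plus strand with CG in capitals, as the bases under H3K4me3 in both full lists. When the same number of peaks was taken at both ages, no young H3K4me3 peak remained in the span.
H3K4me3 at both ages: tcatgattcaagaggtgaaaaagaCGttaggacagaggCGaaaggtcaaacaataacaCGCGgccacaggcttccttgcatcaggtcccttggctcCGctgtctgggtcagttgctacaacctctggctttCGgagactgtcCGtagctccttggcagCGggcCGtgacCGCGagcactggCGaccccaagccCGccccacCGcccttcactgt
The interval held 14 CG dinucleotides and 58.9% G and C, and none of it was marked as repeat in the genome.

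From the fold and p-value, the number of reads at the summit was recovered as 19 for the young shared peak (exact Poisson 95% interval 11.4 to 29.7) and 22 for the aged peak (13.8 to 33.3). The young peak had more reads than 31.4% of its list and the aged peak more than 78.1%. The median peak of the whole list had 20.0 reads in young and 19 in aged HSCs. The intervals overlap and cover counting error only, so the difference in fold between the ages was not resolved at this depth. All 3 peaks lay inside young H3K27me3, and 431 of the 486 bp of the aged peak lay under aged H3K27me3. Outside the span, the nearest H3K4me3 peak beyond Hoxd1 was at the start of Mtx2, a mitochondrial import gene, 60.1 kb away in young and 59.9 kb away in aged HSCs. On the Hoxd13 side it was 88.0 kb away at Lnpk in young HSCs and 538 kb away in aged HSCs.

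H2AK119ub1 was at most members in young and at all in aged HSCs, and covered more of the cluster in aged HSCs. In young HSCs, 8 of 9 genes (all but Hoxd12) carried a region by the gene body rule, against 4.63% of all genes, and 7 of 9 (not Hoxd12 and Hoxd11) by the start site rule, against 2.10%. In aged HSCs the counts were 9 of 9 by both rules, against 23.8% and 14.6%. Young H2AK119ub1 covered 13.5 kb (13.6%) of the span in 33 regions and aged H2AK119ub1 39.0 kb (39.5%) in 51 regions. The ratio of aged to young covered length was 2.89 in the span and 7.83 over the whole lists, a smaller ratio in the cluster than over the genome. With the same number of regions taken from both lists, aged HSCs had 16325 bp, a log2 ratio of 0.28 in place of 1.53. Covered length was then higher in aged HSCs at 5 genes (Hoxd13, Hoxd12, Hoxd11, Hoxd10 and Hoxd4) and lower at the other 4, so the direction at Hoxd9, Hoxd8, Hoxd3 and Hoxd1 depended on the number of regions taken.

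The members differed widely in H2AK119ub1. Hoxd12 had no region in young HSCs and the highest cover of all members in aged HSCs, 84.6%. Hoxd10 followed, with 33.4% in young and 61.2% in aged HSCs. Hoxd11 had 8.56% and 46.1%. At these genes the aged mark formed wide regions, up to 1906 bp at Hoxd11. With the same number of regions from both lists, the aged covered length of Hoxd12 (3123 bp) and Hoxd11 (3902 bp) was the same as with all regions.

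Differences were smaller at Hoxd13 and Hoxd9. The covered share of Hoxd13 was 13.7% in young and 23.5% in aged HSCs, although its first region held the highest −log10 q of the aged list in the span (chr2:74668878-74669446, 4.53-fold, −log10 q of 4.50). Hoxd9 had 31.6% and 37.7%, and its start-site window was covered less in aged (18.6%) than in young HSCs (26.3%), unlike its gene body. Hoxd8 had 12.9% in young and 40.4% in aged HSCs.

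At the other end, Hoxd4 had 4.91% and 23.3%, the lowest aged value. The covered share of Hoxd3 was 11.6% in young and 37.7% in aged HSCs. The widest aged region of the cluster lay over one of its start sites (chr2:74732116-74734505, 2390 bp, 3.37-fold). Hoxd1 had 9.14% and 41.9%, so the member with the least aged H3K27me3 was near the median of the members (40.4%) for aged H2AK119ub1. With the same number of regions from both lists, aged covered length was 0 bp at Hoxd1, 299 bp at Hoxd9 and 444 bp at Hoxd8, compared with 289, 1099 and 558 bp in young HSCs.

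Around the start sites, aged H2AK119ub1 was lower than beside them. It covered 5 of 16 start sites in aged and 1 of 16 in young HSCs, against 1.65% and 0.110% of all start sites. Mean aged cover was 61.5% between 600 and 400 bp before the start sites, 20.9% between 200 and 400 bp after them and 79.6% between 1200 and 1400 bp after them. The 5 covered in aged HSCs were 1 each of Hoxd12, Hoxd10 and Hoxd8 and 2 of Hoxd3. A further start site of Hoxd3, the 1 covered in young HSCs, lay 1 bp from an aged region. That of Hoxd9 lay 12 bp from one.

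The Polycomb marks overlapped, by shares that are to be set beside the part of the span under each mark. In young HSCs, 98.1% of H2AK119ub1 bases lay within H3K27me3, which covered 91.4% of the span. In aged HSCs, 25.9 kb carried both marks. This was 66.3% of aged H2AK119ub1, where H3K27me3 covered 52.5% of the span. It was 49.9% of aged H3K27me3, where H2AK119ub1 covered 39.5% of the span. Nearly all aged H2AK119ub1 (98.0%) lay where young H3K27me3 had been called. Young and aged H2AK119ub1 shared 8.32 kb, which was 61.7% of the young and 21.3% of the aged bases. The 61.7% may be set beside the 39.5% of the span that aged H2AK119ub1 covered.

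Within the body of Hoxd4 lies Mir10b, the gene of miR-10b (chr2:74726070-74726137). It was covered to 100% by H3K27me3 in young HSCs and to 0% in aged HSCs, and neither list of H2AK119ub1 covered it. In aged HSCs this short gene fell in a gap of 445 bp (chr2:74725939-74726383), with H3K27me3 regions of 206 bp and 341 bp on either side. The main mature RNA is shown because it acts by base pairing, with the seed (bases 2 to 8) in capitals, from the RefSeq table of build GRCm38.p6.
miR-10b-5p: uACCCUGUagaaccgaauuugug

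Beyond Hoxd13 lies Evx2, a homeobox gene that is part of the same Polycomb domain. Its cover was similar to that of the members near it, with H3K27me3 at 82.8% in young and 66.6% in aged HSCs and H2AK119ub1 at 19.5% and 44.6%. Of the 8 neighbouring genes listed (Evx2, Lnpk, Mtx2, Atf2, Atp5g3, Chn1, Hnrnpa3 and Nfe2l2), Evx2 and Chn1 carried Polycomb regions at both ages. By the gene body rule, the shares of all genes were 22.2% (young) and 13.3% (aged) for H3K27me3, and 4.63% and 23.8% for H2AK119ub1. H3K4me3 was at 7 of 8 neighbours in young and 4 of 8 in aged HSCs, against 36.6% and 25.6% of all genes. Evx2 had none at either age. In young HSCs, the change from Polycomb regions to H3K4me3 thus lay between Evx2 and Lnpk on one side and between Hoxd1 and Mtx2 on the other.

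Set beside the other Hox clusters, Hoxd was most like Hoxc. Young H3K27me3 covered 91.4% of Hoxd, 96.3% of Hoxc, 37.3% of Hoxb and 25.7% of Hoxa. In aged HSCs the values were 52.5%, 48.4%, 9.87% and 11.7%. Hoxd was therefore the cluster with the highest aged cover and kept 0.574 of its young covered length, compared with 0.502 for Hoxc, 0.455 for Hoxa and 0.264 for Hoxb.

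For H2AK119ub1, the cover of Hoxd was 13.6% in young and 39.5% in aged HSCs, compared with 17.6% and 48.3% for Hoxc, 3.32% and 13.8% for Hoxb, and 4.21% and 17.4% for Hoxa. H3K4me3 was at 6 of 11 Hoxa, 6 of 10 Hoxb and 3 of 9 Hoxc genes in young HSCs by the gene body rule, and at 4, 5 and 2 in aged HSCs, while Hoxd had 0 at both ages. By the start site rule, Hoxc was closer to Hoxd, with 1 of 9 genes in young and 0 of 9 in aged HSCs, and aged H3K4me3 covered less of Hoxc (0.295%) than of Hoxd (0.492%). With windows of 2 kb around start sites in place of 1 kb, 1 Hoxd gene (Hoxd12) was counted at each age, through the peaks before it. None of these differences between clusters was tested.

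**Figure D4:**
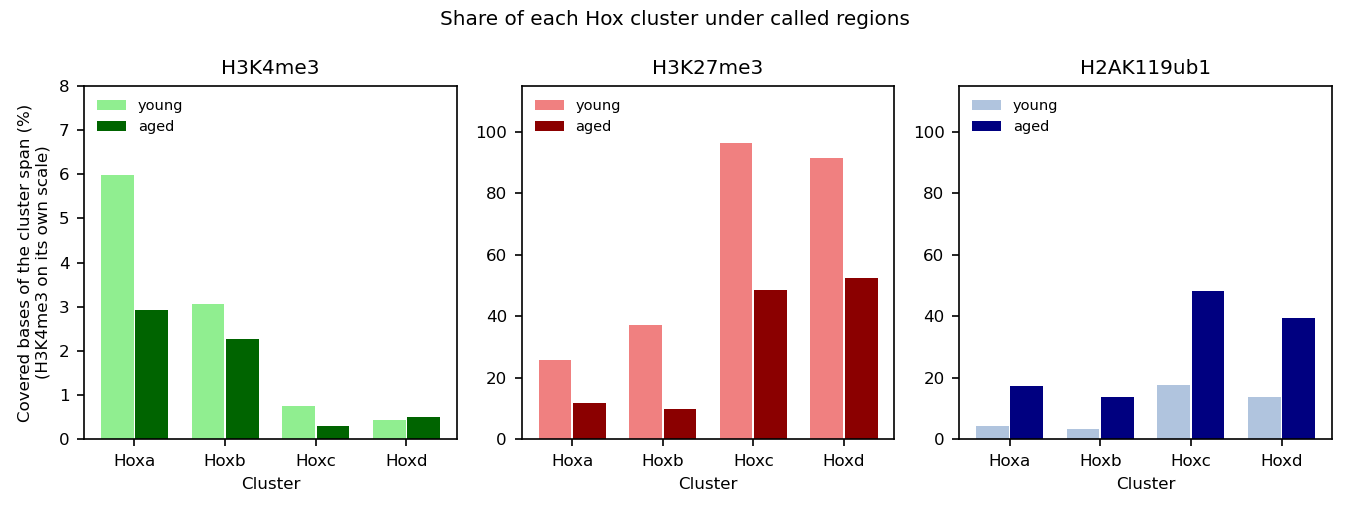
Percent of the span of each of the 4 Hox clusters covered by called regions of H3K4me3, H3K27me3 and H2AK119ub1 in young (light) and aged (dark) HSCs, with 1 pooled list per bar and H3K4me3 on a scale of its own. Hoxc and Hoxd stand above Hoxa and Hoxb in both Polycomb marks at both ages, and below them in H3K4me3.

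Other genes under wide young H3K27me3 allow a comparison, but not one matched for young cover. Median young H3K27me3 cover was 74.4% for the other genes and 87.1% for the Hoxd genes. Among 416 genes outside the Hox clusters with at least 50% young H3K27me3 cover, aged covered length was a median of 36.8% of the young one (quartiles 22.1% and 54.1%), and the 9 Hoxd genes ranged from 20.8% to 90.3% with a median of 51.9%. Aged H2AK119ub1 covered a median of 21.2% of these other genes (quartiles 7.72% and 37.9%) and 40.4% of the Hoxd genes (range 23.3% to 84.6%). Young H2AK119ub1 covered a median of 0% of the other genes (upper quartile 6.75%) and 11.6% of the Hoxd genes. The Hoxd medians lay within the quartiles for H3K27me3 and above them for H2AK119ub1, without a test.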

How the data were processed

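HSCs of young and aged mice were profiled for 3 histone marks by ChIP-seq (16 samples in 8 groups per the labels). Cross-linked chromatin was cut with micrococcal nuclease and sonication, immunoprecipitated and sequenced. The submitters' processing notes name Bowtie2 and MACS2 2.2.6 and the build mm10. The settings of the caller are not given in the sources used here. The 6 deposited lists have the layout of MACS narrow peaks (H3K4me3) and broad regions (the other marks). The authors deposited them as pooled, but the peak names of the broad lists carry a single library number, and whether both replicates went into them is unknown. Per peak, the deposited lists give a fold enrichment (a linear ratio to the local background), the −log10 of the p-value and of the q-value, a display score, which was not used, and for H3K4me3 the offset of the summit. For broad regions these values are averages over the region. No library of single replicates and no input was analysed here.

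Peaks on the assembled autosomes, X and Y were placed on the comprehensive GENCODE M21 annotation (21853 protein-coding genes with 54327 protein-coding start sites) in Python 3.11.15 with numpy 2.4.6 and scipy 1.17.1. A gene was counted when a peak overlapped its body or the 1 kb before or after a start site by at least 1 bp (gene body rule), or the 1 kb around a protein-coding start site (start site rule). Covered bases are those under at least 1 peak. For H3K4me3, whole numbers of reads at the summit were recovered from the fold and p-value for 100% of peaks, to within 0.001 of the deposited −log10 p. The overlap and recovery code was tested on simulated data. Base composition was read from the RefSeq genome GRCm38.p6. Figures were drawn with matplotlib 3.10.9. One result of the cell type check is not reported here. No test was made, since each mark and age has 1 list. Every member is named, as are the widest region and that of the highest −log10 q-value of each list in the span, the neighbour and partner gene lists, and the 5 most alike genes. The members and lists were chosen with earlier results of these data known. Alternatives were a −log10 q of at least 2, the same number of peaks at both ages (the best by q of the longer list), an overlap of at least 200 bp, windows of 2 kb and start sites of all transcripts.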

Additional observations from a re-analysis of the deposited data

How the results depend on the processing

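The covered length of H3K27me3 was lower in aged than in young HSCs with all regions (log2 ratio −0.80), with a −log10 q of at least 2 (−1.34) and with the same number of regions at both ages (−0.74). That of H2AK119ub1 was higher in aged HSCs in all 3 settings, with log2 ratios of 1.53, 2.73 (−log10 q of at least 2) and 0.28 (same number), where 4 of 9 genes (Hoxd9, Hoxd8, Hoxd3 and Hoxd1) were covered less in aged than in young HSCs. Covered lengths and counts were called moved beyond a factor of 1.5. With a −log10 q of at least 2, young H2AK119ub1 covered 4387 bp of the span and 3 of 9 genes carried it by the start site rule, and young H3K4me3 covered 214 bp (log2 ratio of aged to young 1.18). With the same number of regions, aged H2AK119ub1 covered 16325 bp and young H3K4me3 covered 0 bp, which leaves no H3K4me3 ratio. Windows of 2 kb counted 1 gene (Hoxd12) with H3K4me3 at both ages by both rules. Of the covered lengths of single members, 13 of 54 moved with a −log10 q of at least 2, 5 with the same number, 4 with 2 kb windows and 0 with an overlap of 200 bp. The 54 include the H3K4me3 lengths, which were 0 bp at every member and which a stricter cut could not move. No gene count moved with the start sites of all transcripts. The rank order of kept H3K27me3 along the cluster, tried after seeing the data, gave rho 0.90 and 0.77 in the first and second of these settings. The causes of these shifts were not tested. No paired analysis was possible because a list holds no value per replicate. Which weak regions are listed depends on the threshold of the caller.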

Other observations

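Noncoding transcripts of the Hoxd span differed from one another. Haglr, a long noncoding RNA between Hoxd3 and Hoxd1, was covered by H3K27me3 to 93.3% in young and 56.9% in aged HSCs, and by H2AK119ub1 to 19.6% and 34.1%. Hoxd3os1 is antisense to the whole of Hoxd8 and to the first part of Hoxd3, so its values are not independent of theirs. It had 91.2% and 51.6% for H3K27me3 and 7.77% and 40.6% for H2AK119ub1. H2AK119ub1 was lower in aged HSCs at 3 short transcripts. Gm28793 (62.0% in young and 24.7% in aged HSCs) and Gm14396 (32.2% and 25.3%) lie between Hoxd10 and Hoxd9. They overlap on opposite strands, so values of this pair are not independent. The other was Gm14426 within Haglr (87.7% and 41.7%). These transcripts were picked out after their values were seen. H3K4me3 covered none of the annotated noncoding transcripts of the span.

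The 5 genes outside the Hox clusters whose 6 covered percents were nearest to the median of the Hoxd genes were Lhx2, Barhl2, Lhx9, Dmrt2 and Pax9, at Euclidean distances of 3.02 to 9.34 percentage points. The 9 Hoxd genes themselves lay 5.45 to 51.3 points from that median. Lhx2, the nearest, was covered by H3K27me3 to 85.3% in young and 47.6% in aged HSCs and by H2AK119ub1 to 11.3% and 39.1%. All 5 encode transcription factors of embryonic development.

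Among 9 genes of the Pbx, Meis and Pknox families, which encode DNA-binding partners of Hox proteins, H3K4me3 lay at a start site of 6 in young and 4 in aged HSCs. Over all protein-coding genes, the start site rule gave 34.3% and 23.7%. H3K27me3 lay at a start site of 3 (Meis2, Meis3 and Pknox2) in young and 1 (Pknox2) in aged HSCs, against 16.5% and 8.58% of all genes. H2AK119ub1 lay at 0 in young and 3 (Meis2, Meis3 and Pknox2) in aged HSCs, against 2.10% and 14.6%. Meis1, a partner with a known role in HSCs, had H3K4me3 at a start site and no H3K27me3 at both ages.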
